A study of Homo sapiens with 6 samples.

Results

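The comparison took all 6 arrays of the series as 1 group and asked which genes differed from control in the same direction in cells made to overexpress either miR-338-5p or miR-421. Its members were the probes with a mean log2 ratio to control that differed from 0 (limma, adjusted p under 0.05) and that had 1 sign on all 6 arrays. Of 27507 probes tested, 6094 met both conditions, which is 22.2% of them, while 29.8% had 1 sign on all 6 arrays whatever the p. Among these, 2277 probes (8.28%) were higher and 3817 (13.9%) were lower in the miRNA lines than in control. "Rose" and "fell" are used below only for genes that met both conditions.

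All RNA came from 22RV1, an established line of human prostate cancer cells that is SPINK1 positive per the labels. The cells stably carried a lentiviral vector, either pLemiR-338-5p, pLemiR-421 or, as control, pLemiR-RFP, and all of them were grown in RPMI with 10% FBS and puromycin at 1 µg/mL. Each line gave 3 arrays: replicates 1, 2 and 3 for miR-338-5p, and a sample labelled as a pool with replicates 1 and 2 for miR-421. The control was labelled with Cy3 and the miRNA line with Cy5 throughout, so dyes were not swapped, and RNA was tailed with poly(A) before oligo-dT labelling. The labels do not say what the pool held, whether the replicates were separate cultures or clones, or whether 1 control culture served every array. P-values therefore measure the spread between these samples, which may be technical. If 1 control culture served every array, a ratio tested against 0 also leaves out the spread of the control itself.

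A microRNA (miRNA) guides an Argonaute protein to messenger RNAs that hold a match to its seed, the bases near its 5′ end, and lowers their stability or translation. The integrated stress response is a pathway in which phosphorylation of the initiation factor eIF2 alpha slows translation in general while it favours translation of the transcription factor ATF4, which then raises genes of amino acid transport, amino acid synthesis and stress. SPINK1 encodes a secreted serine protease inhibitor that marks a subset of prostate cancers. The seeds of both miRNAs are in capitals in the mature sequences below, shown because a response common to the lines is one of cells that received different seeds. Sequences are those of RefSeq on GRCh38.p14, written 5′ to 3′.
hsa-miR-338-5p: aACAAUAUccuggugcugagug
hsa-miR-421: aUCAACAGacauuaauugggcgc
The miR-338-5p sequence lies at chr17:81125923-81125944 and that of miR-421 at chrX:74218392-74218414, both on the minus strand. Their seeds differ. The DNA complement of the miR-338-5p seed, ATATTGT, was in 0.603% of the 3817 probes that fell, 0.439% of the 2277 that rose and 0.509% of all tested. For the complement of the miR-421 seed, CTGTTGA, the shares were 0.734%, 0.834% and 0.64%. These shares refer to the 60-base probes in the orientation the files give and not to whole transcripts.

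All 10 luminal prostate markers on the list, among them KLK3, HOXB13 and KRT8, were well above background in both dyes on all 6 arrays. The basal markers KRT5 and TP63, the neuroendocrine markers NCAM1 and INSM1, the fibroblast collagens COL1A2 and COL3A1, and the endothelial genes PECAM1 and KDR were not well above background on any array in either dye. Other members of these lists were: KRT15 (basal) and COL1A1 (fibroblast) on all 6 arrays in both dyes, CHGA (neuroendocrine) likewise, and CHGB, SYP, DCN and LUM on 6 arrays in Cy3 and 5 in Cy5. LUM averaged 1.56 with arrays from -0.77 to 2.95, CHGA 0.83 with arrays from -1.42 to 2.82, and KRT15 0.25, and none of these 3 genes met both conditions. The part of such cells in the named changes was not tested. Probes for PTPRC, CD3E and CD14 of the immune list, and for VWF and CDH5 of the endothelial list, were above background on 6 arrays, and none of the tested members of either list rose or fell. In Cy3, the control, 47.33% to 47.85% of gene probes were well above background on the miR-338-5p arrays and 44.31% to 44.42% on the miR-421 arrays. What set this difference was not tested. In Cy5 the share was 41.9% to 48.31%, lowest on miR-421 replicate 1. In bulk RNA such as this, fewer cells of a type and less RNA per cell cannot be told apart. A pair of arrays stood apart from the rest. Replicate 2 of miR-338-5p ran against the other arrays for liver genes, with an ALB log2 ratio of 2.18 where the mean of all 6 was -3.29, and replicate 1 of miR-421 had the lowest medians of the cell cycle lists. Without both arrays 4673 probes met the conditions, 1864 higher and 2809 lower.

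The size of the common response was modest for most probes. The median log2 ratio was 0.40 among the probes that rose and -0.45 among those that fell, against 0.0086 for all genes tested. A change of at least 2-fold was seen for 348 probes, 96 higher and 252 lower, and one of at least 4-fold for 2 higher and 21 lower. Lower probes made up 62.6% of the common response after loess, but 80.6% when each array was centred on its median instead, with 1061 higher and 4399 lower. In a test of the difference between the lines (limma with adjustment), 0 of the 6094 probes passed. An unadjusted p under 0.05 was found for 717 of them. Over the whole array 13 of 27495 probes passed, or 0.0473%. The 6094 probes were chosen for the same sign on every array and a mean far from 0 for its spread. That choice favours probes on which the lines are alike, so the 0 cannot show whether the lines agree. With each gene represented by its brightest probe, 1893 of 21718 genes rose (8.72%) and 3057 fell (14.1%). At the edge of the rule, PDE2A at 0.56 and C9orf142 at 0.26 lay just inside, and EFCAB12 at 0.20 and RNF8 at -0.17 just outside.

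**Figure D1:**
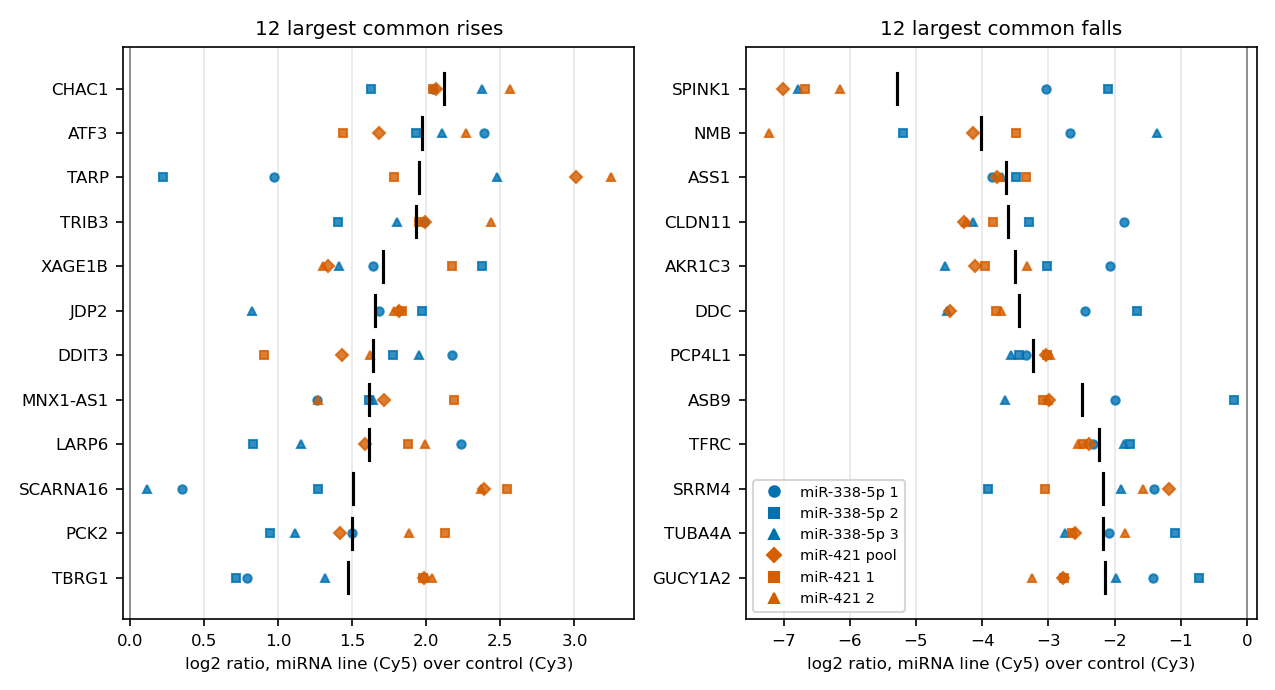
Log2 ratio of the miRNA line (Cy5) over control (Cy3) on each of the 6 arrays for the 12 largest common rises (left) and the 12 largest common falls (right). Points are arrays, coloured by line, and black bars are means of 6; SPINK1 ranges from -7.01 to -2.10, while the points of ASS1 lie between -3.85 and -3.33.

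SPINK1 was the gene with the lowest mean. Its log2 ratios were -3.04, -2.10 and -6.78 for miR-338-5p replicates 1, 2 and 3, and -7.01, -6.68 and -6.15 for the miR-421 pool and replicates 1 and 2. All 6 arrays were below control, with replicates 1 and 2 of miR-338-5p nearest to it. The mean was -5.29 ± 2.15 (SD, n = 6), or 39.2-fold lower (limma, adjusted p = 0.0046). The Cy3 level of the control was 13.9 ± 0.08 (SD, n = 6) on the log2 scale, and the Cy5 level of the miRNA lines 8.6 ± 2.18. The means of the lines, -3.97 and -6.61, did not pass the test of their difference (limma, adjusted p = 0.40). The probe maps to chr5:147204211-147207585 on the minus strand of hg19, a span longer than the probe itself.

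Among the 12 largest falls, the smallest SD was that of ASS1, argininosuccinate synthase, which makes argininosuccinate from citrulline and aspartate. Its 6 log2 ratios were -3.85, -3.49, -3.70, -3.77, -3.33 and -3.72, in the order of arrays used for SPINK1. The arrays of both lines overlapped, and the mean was -3.64 ± 0.19 (SD, n = 6), or 12.5-fold lower (limma, adjusted p = 6.4e-06). A further ASS1 probe gave -2.94, and the one described lies at chr9:133376601-133376660 on the plus strand of hg19. Genes next to ASS1 in arginine handling went in either direction. ASL, which splits argininosuccinate into arginine and fumarate, rose by 0.72 (adjusted p = 0.0088), ARG2, a mitochondrial arginase, rose by 1.02 (0.0098) and the arginine transporter SLC7A1 rose by 0.43 (0.014). The transporter SLC7A2 fell by 0.67 (0.029) and NAGS, which makes the activator of the first urea cycle enzyme, fell by 0.28 (0.036). In all, 3 of 11 tested genes of this list rose and 3 fell, against 8.72% and 14.1% of all genes, with a median of -0.03. No member rose under median centring, where 4 fell. In that setting 1061 of all 27507 probes rose and 4399 fell.

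The other large falls were of genes with varied functions. NMB, a bombesin-like neuropeptide, had log2 ratios from -7.21 to -1.36 with a median of -3.81, and averaged -4.01 ± 2.04 (SD, n = 6; limma, adjusted p = 0.0093). The miR-421 replicate 2 array was lowest and miR-338-5p replicate 3 highest. CLDN11, a tight junction protein, ranged from -4.27 to -1.86 and averaged -3.61 ± 0.93. AKR1C3, a reductase that makes androgens from weaker precursors, ranged from -4.55 to -2.07 and averaged -3.51 ± 0.89. DDC, which decarboxylates aromatic amino acids such as L-DOPA, ranged from -4.52 to -1.66 and averaged -3.44 ± 1.15. For these 3 genes the adjusted p was 0.0013, 0.0013 and 0.0028, and the array nearest to control was DDC on miR-338-5p replicate 2. PCP4L1 fell by 3.23 on the log2 scale, with arrays from -3.56 to -2.97, and TFRC, the transferrin receptor that imports iron, fell by 2.23, with arrays from -2.55 to -1.77. ASB9, SRRM4, TUBA4A and GUCY1A2 had means of -2.49, -2.17, -2.17 and -2.15, with SDs of 1.24, 1.08, 0.64 and 0.96. Other probes gave -1.63 to -0.90 for TUBA4A and -0.44 for GUCY1A2. ASB9 was at -0.20 on miR-338-5p replicate 2 and at -3.65 to -1.99 on the rest. AKR1C3 shares long stretches of sequence with AKR1C1 and AKR1C4, so the signal of these probes cannot be assigned with certainty. AKR1C4 also fell, but its Cy5 signal was well above background on 1 of 6 arrays and no size is given, while AKR1C1 averaged -1.30 with 1 array above 0.

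The falls with the smallest p, ASS1 and PCP4L1 aside, were led by ADAMTS4, a protease of cartilage matrix, and CORO1A, an actin-binding protein of leukocytes. ADAMTS4 ranged from -2.08 to -1.89 and averaged -2.0 ± 0.07 (SD, n = 6; limma, adjusted p = 6.4e-06), and CORO1A from -2.31 to -1.73 with a mean of -2.13 ± 0.23 (0.00017). ICAM2 at -1.27, above background in Cy5 on 2 arrays, and COL4A3BP, now CERT1, at -1.09 followed. Among the rises, LOC100505666, now DCST1-AS1, averaged 1.17 ± 0.13 (0.00031) and EML1 1.1 ± 0.13 (0.00031). PCSK4, CENPM and LMNTD2 rose by 0.84, 0.81 and 0.74, with SDs of 0.10, 0.09 and 0.08. CENPM encodes a centromere protein, and its other probes gave 0.07 to 0.65.

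**Figure D2:**
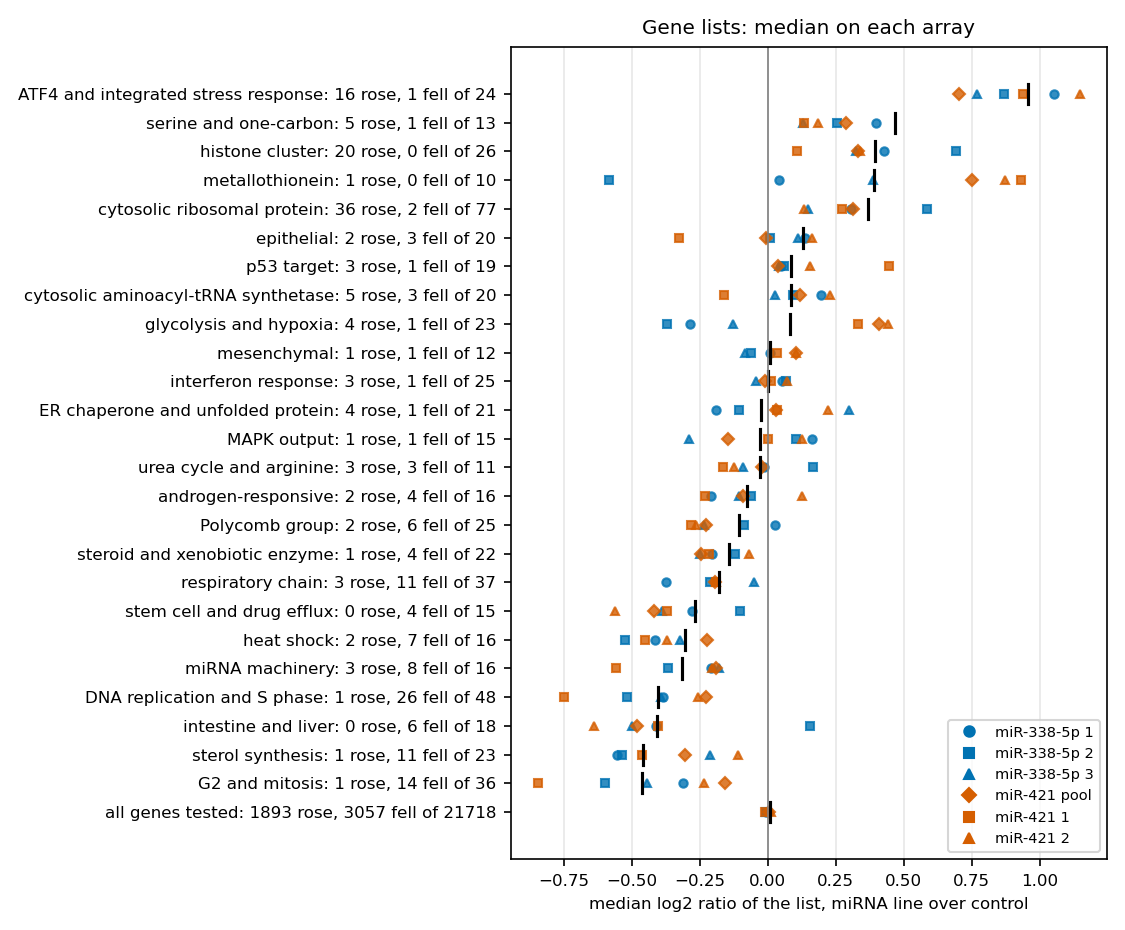
Median log2 ratio of each gene list on each of the 6 arrays, with the median of the members' means as a black bar, and with the number of members that rose and fell in the row label. The ATF4 list is above 0.7 on every array, while the S phase and G2 and mitosis lists are below 0 on every array.

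The genes of ATF4 and the integrated stress response rose more often than they fell. Of 24 tested members, 16 rose and 1 fell, against 8.72% and 14.1% of all genes tested. The median of the list was 0.96, against 0.0086 for all genes. By array the median ran from 0.70 for the miR-421 pool to 1.15 for miR-421 replicate 2. Between 15 and 18 members rose under every alternative tried, and 5 of the 12 largest rises of the whole comparison were members. The list was written with earlier results of these data known.

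CHAC1, which breaks down glutathione, had the highest mean of all rises. Its log2 ratios were 2.04, 1.62 and 2.38 for miR-338-5p and 2.07, 2.05 and 2.57 for miR-421, so that the lines overlapped. The mean was 2.12 ± 0.32 (SD, n = 6), or 4.35-fold (limma, adjusted p = 0.00041), at chr15:41248631-41248690 on the plus strand of hg19. Another CHAC1 probe gave 0.60. TRIB3, a pseudokinase that dampens ATF4 signalling, had log2 ratios of 1.98, 1.40, 1.80, 1.99, 1.95 and 2.43 and a mean of 1.93 ± 0.33 (0.0005). ATF3, a stress-induced transcription factor, ranged from 1.43 to 2.39 with a mean of 1.97 ± 0.36 (0.00062), but its other probes gave 0.11 to 1.08.

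DDIT3, the transcription factor CHOP that is linked to cell death under lasting stress, ranged from 0.90 to 2.17 and averaged 1.64 ± 0.44 (SD, n = 6; limma, adjusted p = 0.0015). JDP2, a relative of ATF3, averaged 1.65 ± 0.42 (0.0013), with miR-338-5p replicate 3 at 0.82 and the rest at 1.68 to 1.97. ATF4 itself rose by 0.89, with arrays from 0.54 to 1.11 (0.0011), and its partner CEBPB by 1.23, with arrays from 0.98 to 1.44 (0.00041). PPP1R15A, the phosphatase subunit that restores translation, rose by 0.75. SESN2, which restrains mTORC1, rose by 1.12 with arrays from 0.91 to 1.33, and GDF15, a secreted stress cytokine, by 1.25 with arrays from 0.35 to 2.77.

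Amino acid transport and synthesis followed. SLC3A2 and SLC7A5, the subunits of a large neutral amino acid transporter, rose by 1.30 and 0.88, and ASNS, asparagine synthetase, by 1.17 with arrays from 0.62 to 1.83. PCK2, the mitochondrial enzyme that makes phosphoenolpyruvate, was not on the list and was among the 12 largest rises at 1.49 ± 0.45 (SD, n = 6), with another probe at 0.76. The cystine transporter SLC7A11 averaged 1.03 and DDIT4 1.23, each with 1 array below 0, so neither met the sign condition. ATF5, a stress-related factor of the same family as ATF4, was the member that fell, by 1.24 with arrays from -1.47 to -0.54 (limma, adjusted p = 0.0018). SLC38A2 averaged -0.77, with arrays from -2.14 to 0.11.

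The promoters of these genes were searched on both strands for TGATGNAA, the core of the composite site that ATF4 binds with C/EBP factors, in the 300 bases from 250 before to 50 after the gene's start in RefSeq. It was in 6 of the 23 matched promoters of the list, 26.1%, against 3.67% of 27305 promoters, 2.91% of 1133 matched genes that rose and 1.56% of 2049 that fell. The 6 were ASNS, ATF3, CHAC1, FGF21, SLC3A2 and SLC7A1, of which FGF21 was not tested and the others rose. TRIB3 and DDIT3 had no match in this window. The 250 bases before the start of CHAC1, at chr15:40953221-40953470 on the plus strand, and of ASNS, at chr7:97872409-97872658 on the minus strand (GRCh38.p14), are shown with the match in capitals, since both genes rose on every array.
CHAC1: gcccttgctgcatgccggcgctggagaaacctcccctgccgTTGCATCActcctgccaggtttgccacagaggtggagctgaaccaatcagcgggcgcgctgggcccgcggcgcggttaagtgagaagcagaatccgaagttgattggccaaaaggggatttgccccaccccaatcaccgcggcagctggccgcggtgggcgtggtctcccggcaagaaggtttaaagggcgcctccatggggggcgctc
ASNS: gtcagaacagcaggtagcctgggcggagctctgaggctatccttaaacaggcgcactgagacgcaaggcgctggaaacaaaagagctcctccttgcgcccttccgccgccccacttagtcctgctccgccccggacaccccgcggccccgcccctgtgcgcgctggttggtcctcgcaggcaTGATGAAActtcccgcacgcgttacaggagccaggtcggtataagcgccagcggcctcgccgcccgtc
The match of CHAC1 starts 209 bases before the gene's start and is on the opposite strand, and that of ASNS starts 68 bases before. A match of letters is a description of the sequence and not a measurement of binding.

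The neighbours of the stress response moved less uniformly. In serine and one-carbon metabolism 5 of 13 genes rose (38.5%, against 8.72% of all genes) and 1 fell (7.69%, against 14.1%), with a median of 0.47. MTHFD2, a mitochondrial folate enzyme, rose by 0.88 with arrays from 0.34 to 1.30 (limma, adjusted p = 0.0048), and the serine synthesis enzymes PSAT1 and PSPH by 0.73 (0.013) and 0.49 (0.0036). SHMT2 rose by 0.60 and MTHFD1L by 0.69, the latter with other probes at 0.09 to 0.15. PHGDH, the entry enzyme of serine synthesis, averaged 0.57 and ranged from -0.49 to 1.51 (0.14). The cytosolic enzyme MTHFD1 fell by 0.67 with arrays from -0.97 to -0.49 (0.0034).

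Cytosolic aminoacyl-tRNA synthetases, which charge tRNAs with amino acids, went both ways, with 5 of 20 that rose (25%, against 8.72% of all genes), 3 that fell (15%, against 14.1%) and a median of 0.09. MARS (now MARS1) rose by 1.03 with arrays from 0.75 to 1.32 (limma, adjusted p = 0.001), and another probe gave 0.42. AARS rose by 0.93 (0.01), YARS by 0.81 (0.027), CARS by 0.63 (0.0062) and WARS by 0.38 (0.0064). RARS fell by 1.0 (0.012), DARS by 0.61 (0.011) and HARS by 0.38 (0.011). RARS and DARS belong to the same multi-enzyme complex as MARS, whose mean was above 0.

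The endoplasmic reticulum list had 4 rises and 1 fall among 21 genes, against 8.72% and 14.1% of all genes, and a median of -0.03. ERN1, the sensor IRE1, rose by 0.83 with arrays from 0.67 to 1.20 (limma, adjusted p = 0.0013) and another probe at 0.05, ATF6, another sensor, by 0.76 (0.0081), XBP1, the factor that IRE1 activates, by 0.72 (0.0034), and HERPUD1, a degradation factor, by 0.69 (0.0016). HSPA5, the main chaperone of this compartment, fell by 0.72 with arrays from -1.33 to -0.06 (0.026), and lost its call in 9 of 20 alternatives. HSP90B1 averaged -0.47 (0.29), CALR 0.38 (0.18) and DNAJB9 -0.04 (0.88).

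**Figure D3:**
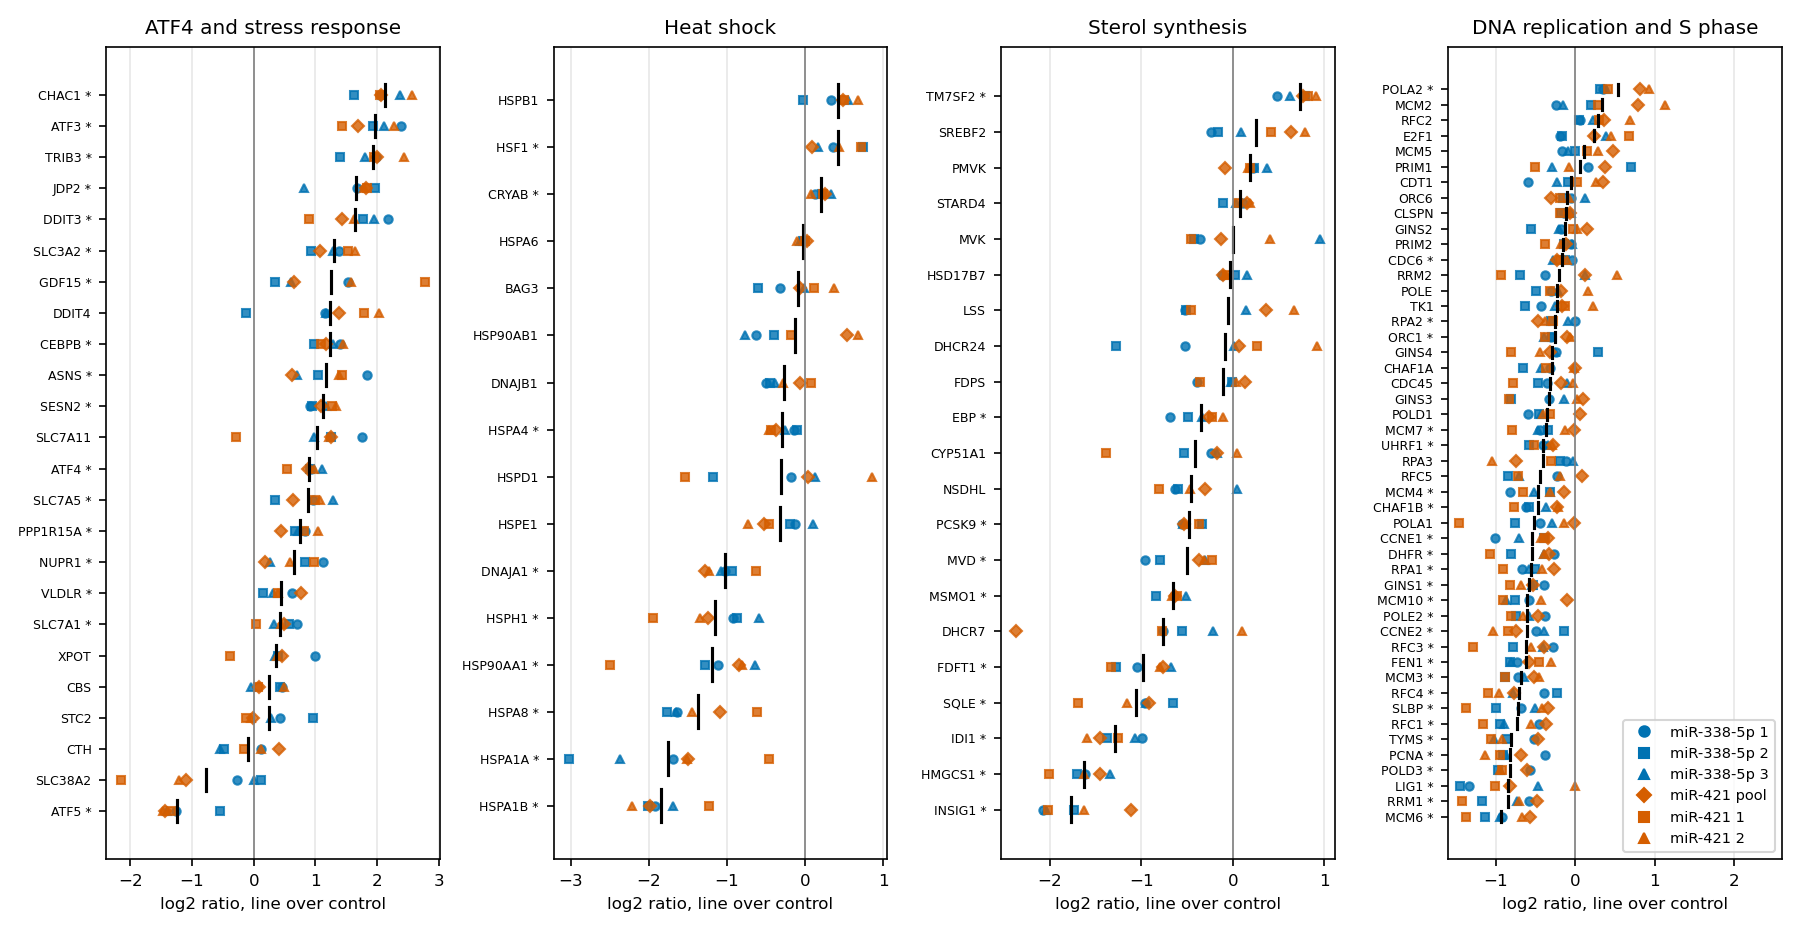
Log2 ratio on each array of tested members of 4 lists (members not reported here are left out), with the mean of 6 as a black bar and an asterisk after members that rose or fell. Most stress response members lie right of 0, and the lowest members of the heat shock list lie below -1 on most arrays.

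Of 16 heat shock genes tested, 7 fell and 2 rose, against 14.1% and 8.72% of all genes, and the median was -0.30. HSPA1B, the main inducible HSP70, had log2 ratios of -1.92, -2.02 and -1.69 for miR-338-5p and -1.99, -1.24 and -2.22 for miR-421. The mean was -1.84 ± 0.34 (SD, n = 6; limma, adjusted p = 0.00064), at chr6:31797870-31797929 on the plus strand of hg19. HSPA1A, a near-identical copy whose signal may not be separable from it, averaged -1.76 ± 0.87 with arrays from -3.03 to -0.46 (0.0087).

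HSPA8, the constitutive HSP70, fell by 1.37 with arrays from -1.77 to -0.62 (limma, adjusted p = 0.0026). HSP90AA1 fell by 1.20 (0.014), most on miR-421 replicate 1 at -2.50, and its other probes gave -1.26 to -1.0. The HSP70 partners HSPH1 and DNAJA1 fell by 1.16 (0.0051) and 1.03 (0.0012). HSF1, the transcription factor of the heat shock response, rose by 0.42 (0.025), and CRYAB, a small heat shock protein, by 0.20 (0.019). The mitochondrial chaperonins HSPD1 and HSPE1 averaged -0.31 and -0.32 and did not pass the test (0.49 and 0.072).

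Heat shock elements were searched on both strands as GAA, TTC and GAA with NN between each pair, so that the complementary phase is included. They were in 3 of 14 matched promoters, 21.4%, against 0.487% of all promoters, 0.353% of genes that rose and 0.488% of genes that fell. The 3 were DNAJA1, HSPA6 and HSPA8. HSPA6 averaged -0.03 and did not pass the test. The 250 bases before the start of HSPA8, at chr11:123062137-123062386 on the minus strand of GRCh38.p14, hold a match 230 and another 55 bases before the start, in capitals.
HSPA8: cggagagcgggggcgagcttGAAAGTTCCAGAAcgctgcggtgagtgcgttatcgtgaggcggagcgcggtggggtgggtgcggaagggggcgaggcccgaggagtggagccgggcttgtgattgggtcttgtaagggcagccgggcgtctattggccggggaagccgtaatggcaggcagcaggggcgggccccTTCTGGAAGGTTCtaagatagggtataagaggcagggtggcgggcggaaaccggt

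Of 23 tested genes of sterol synthesis and uptake, 11 fell (47.8%, against 14.1% of all genes) and 1 rose (4.35%, against 8.72%), with a median of -0.46. INSIG1, the sterol sensor that retains the SREBP complex in the endoplasmic reticulum, fell by 1.77 with arrays from -2.07 to -1.11 (limma, adjusted p = 0.00083). HMGCS1, which makes HMG-CoA, had log2 ratios of -1.62, -1.70, -1.34, -1.45, -2.01 and -1.62 and a mean of -1.62 ± 0.23 (0.0004). The arrays of the lines overlapped. IDI1 fell by 1.29 (0.00062), SQLE by 1.05 (0.0029), FDFT1 by 0.98 (0.002) and MSMO1 by 0.65 (0.00081).

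TM7SF2, a sterol reductase, was the member that rose, by 0.73 with arrays from 0.48 to 0.91 (limma, adjusted p = 0.0011). The transcription factor SREBF2 averaged 0.26 (0.25). The motif TCACNNCAC, part of the sterol regulatory element, was in 1 of 18 matched promoters of the list, that of SREBF2 (5.56%), against 3.55% of all promoters, 3.62% of genes that rose and 3.76% of genes that fell. Without both arrays that stood apart, 8 members fell.

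Of 48 tested genes of DNA replication and S phase, 26 fell (54.2%, against 14.1% of all genes) and 1 rose (2.08%, against 8.72%), with a median of -0.40 that was below 0 on every array and lowest on miR-421 replicate 1, at -0.75. MCM6, a subunit of the replicative helicase, had log2 ratios of -0.93, -1.13, -0.94, -0.57, -1.38 and -0.67 and averaged -0.94 ± 0.30 (SD, n = 6; limma, adjusted p = 0.0026). The ribonucleotide reductase subunit RRM1 fell by 0.85 (0.0062), the sliding clamp PCNA by 0.82 (0.0028), thymidylate synthase TYMS by 0.81 (0.0028) and the polymerase subunit POLD3 by 0.83 (0.0012). The helicase subunits MCM3, MCM4 and MCM7 fell by 0.69, 0.46 and 0.37 (another MCM7 probe was at 0.09), whereas MCM2 averaged 0.34 (0.23) and MCM5 0.11 (0.42). POLA2, a subunit of the priming polymerase, rose by 0.53 (0.01). Without both arrays that stood apart, 20 members fell and 1 rose.

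The E2F sites TTTGGCGC and TTTCGCGC were searched on both strands as separate motifs. TTTGGCGC was in 7 of 40 matched promoters of the list, 17.5%, against 0.659% of all promoters, 1.15% of the genes that rose and 1.51% of those that fell. TTTCGCGC was in 5, 12.5%, against 0.546%, 1.32% and 1.42%. Not all genes with a match fell. Of those with TTTCGCGC, MCM3, MCM6 and MCM7 fell, MCM2 averaged 0.34 without a call, and POLA2 rose by 0.53. Among those with TTTGGCGC, GINS1, MCM6 and POLE2 fell, while POLA1 and POLE did not meet both conditions. The promoter of MCM6, which held both motifs, has TTTGGCGC at 152 and 90 bases before the start and is shown for chr2:135876444-135876693 on the minus strand of GRCh38.p14, with these 2 matches in capitals.
MCM6: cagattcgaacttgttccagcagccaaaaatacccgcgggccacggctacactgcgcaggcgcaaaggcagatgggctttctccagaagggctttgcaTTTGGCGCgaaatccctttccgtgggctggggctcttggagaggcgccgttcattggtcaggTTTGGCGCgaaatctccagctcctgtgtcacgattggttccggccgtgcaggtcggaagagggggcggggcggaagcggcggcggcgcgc

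In the G2 and mitosis list, 14 of 36 genes fell (38.9%, against 14.1% of all genes) and 1 rose (2.78%, against 8.72%), with a median of -0.46. ASPM, a spindle pole protein, fell by 1.43 with arrays from -2.33 to -0.69 (limma, adjusted p = 0.0064), NUSAP1, which binds spindle microtubules, by 1.25 (0.0098), and the kinetochore proteins CENPF and CENPE by 1.24 (0.018) and 1.07 (0.0088). On CENPF, miR-421 replicate 1 was at -2.71 and the rest at -1.21 to -0.48, and another probe gave -0.33. CDK1 fell by 0.84 (0.0055) and CCNA2 by 0.78 (0.001), while cyclin B1, CCNB1, averaged -0.23 (0.24) and MKI67 -0.60 with an array above 0. PLK1, a mitotic kinase, rose by 0.36 (0.013).

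Of 26 tested replication-dependent histone genes, 20 rose (76.9%, against 8.72% of all genes) and 0 fell (against 14.1%), with a median of 0.40. With median centring 8 rose and 1 fell (median 0.29), and without miR-421 replicate 2 there were 13 rises. In the other alternatives 14 to 21 rose and at most 1 fell. HIST1H4C, now H4C3, had log2 ratios of 1.55, 1.86, 0.96, 1.09, 0.65 and 1.23 and a mean of 1.22 ± 0.43 (adjusted p = 0.0034). HIST1H3B rose by 0.92 (0.0058), HIST1H2AM by 0.78 (0.016) and HIST2H2AC by 0.75 (0.0092). On the last pair miR-338-5p replicate 2 was highest, at 1.67 and 1.5. SLBP, the protein that binds the stem-loop at the end of histone messages, fell by 0.72 (0.013). Histone messages normally lack a poly(A) tail, and a tail was added to all RNA here before labelling. Members of this family are alike in sequence, so single genes are uncertain.

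Cytosolic ribosomal protein genes had 36 of 77 members that rose (46.8%, against 8.72% of all genes), 2 that fell (2.6%, against 14.1%) and a median of 0.37, but this direction did not hold under every processing: with the image software's ratio 5 rose and 7 fell (median 0.03), and by the authors' deposited values 3 rose and 5 fell (median -0.02). Without both arrays that stood apart, 28 rose. Their spots were bright, with a median Cy3 intensity of 15.1 on the log2 scale. RPS2 rose by 1.16 ± 0.22 (SD, n = 6; limma, adjusted p = 0.00071) and RPS18 by 1.06 ± 0.16 (0.00048), each with other probes at lower values (0.49 to 1.1 and 0.14 to 0.51). RPL22 and RPL11 fell by 0.99 and 0.65. Many pseudogene copies exist for these genes.

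**Figure D4:**
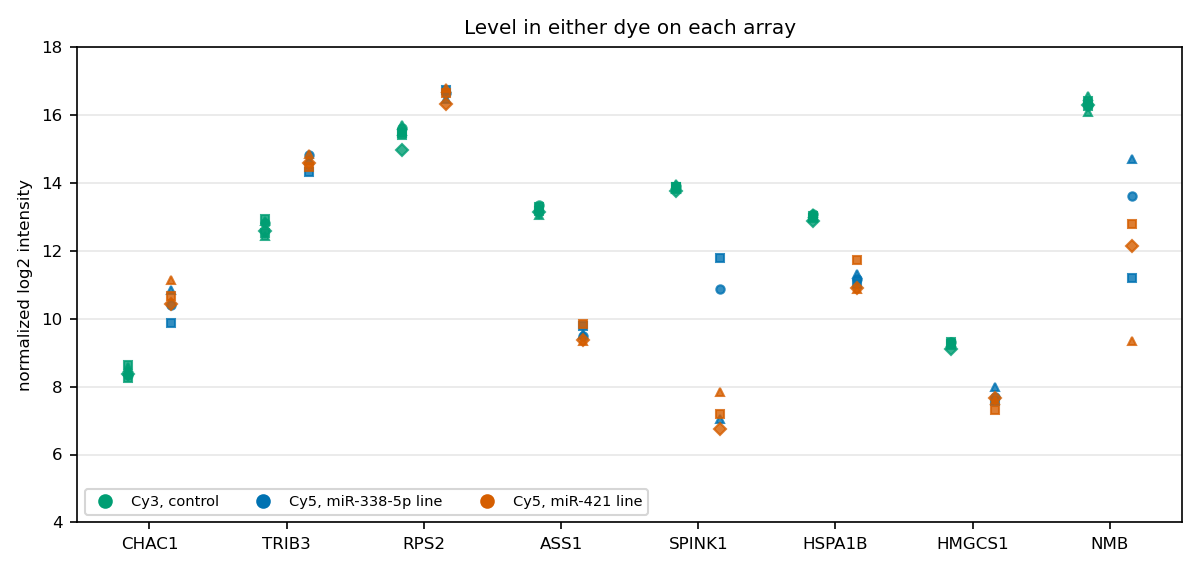
Normalized log2 intensity of 8 genes in Cy3 (control, green) and Cy5 (miRNA line, blue or orange) on each of the 6 arrays. The Cy5 points of SPINK1 and NMB are widely spread, with SDs of 2.18 and 1.88 against 0.08 and 0.16 in Cy3. RPS2 and TRIB3 have the larger SD in Cy3, at 0.26 and 0.21 against 0.17 and 0.20 in Cy5.

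Of 37 respiratory chain genes, 11 fell (29.7%, against 14.1% of all genes) and 3 rose (8.11%, against 8.72%), with a median of -0.18. NDUFB3, SDHD, ATP5O and ATP5G1 fell by 0.76, 0.74, 0.65 and 0.62, and COX4I1, NDUFV1 and CYC1 rose by 0.39, 0.39 and 0.34. Among glycolysis and hypoxia genes 4 of 23 rose and 1 fell, against 8.72% and 14.1% of all genes. VEGFA, the main factor of vessel growth, rose by 0.87 with arrays from 0.63 to 1.02 (limma, adjusted p = 0.0005), and the glucose transporter SLC2A1 by 0.53 (0.0053). Lactate dehydrogenase A averaged -0.47 (0.10). The median of this list was below 0 on all 3 arrays of miR-338-5p, at -0.37 to -0.13, and above 0 on all 3 of miR-421, at 0.33 to 0.44; this difference was not tested.

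Of 16 tested androgen-responsive genes, 4 fell (25%, against 14.1% of all genes) and 2 rose (12.5%, against 8.72%), with a median of -0.08. Without both arrays that stood apart, 3 fell and 0 rose, and without miR-421 replicate 1 alone 2 fell and 2 rose. ELL2, an elongation factor, fell by 1.99 (limma, adjusted p = 0.0031), and FKBP5, a steroid receptor cochaperone, by 1.09 (0.021). KLK3, which encodes PSA, rose by 1.27 (0.017) with arrays from 0.15 to 2.22, but its other probe gave -0.09. TMPRSS2 averaged 0.04 (0.91). Of the 10 luminal markers, 5 fell and 1 rose, against 14.1% and 8.72% of all genes. Leaving out both arrays that stood apart gave 2 falls and 0 rises, leaving out miR-421 replicate 1 gave 2 and 1, leaving out miR-338-5p replicate 1 gave 2 and 2, and median centring gave 2 and 0. KLK3 lost its call in 4 of 20 alternatives.

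TARP, a transcript of the T cell receptor gamma locus that prostate cells are known to make, rose by 1.95 ± 1.19 (SD, n = 6; limma, adjusted p = 0.017). Its arrays ran from 0.22 on miR-338-5p replicate 2 to 3.25 on miR-421 replicate 2, and another probe gave 2.26. XAGE1B, a cancer-testis antigen, rose by 1.70 ± 0.46 (0.0015). LARP6, an RNA-binding protein of collagen messages, rose by 1.61 ± 0.53 (0.0028), with another probe at 0.12. The long noncoding RNA MNX1-AS1 rose by 1.61 ± 0.34 (0.00084), and TBRG1, a growth inhibitor, by 1.47 ± 0.62 (0.0053). TBRG1 was at 0.71 to 1.32 on the miR-338-5p arrays and 1.97 to 2.04 on those of miR-421 (difference by limma, adjusted p = 0.10). The small Cajal body RNA SCARNA16 rose by 1.5 ± 1.09 (0.03) and was at 2.37 to 2.55 on the miR-421 arrays against 0.11 to 1.26 for miR-338-5p. That difference did not pass the adjusted test over all probes (limma, unadjusted p = 0.00075) and passed it in 2 alternatives.

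Genes of miRNA processing and action had 8 falls (50%, against 14.1% of all genes) and 3 rises (18.8%, against 8.72%) among 16, with a median of -0.32. DICER1, which cuts precursor miRNAs, fell by 1.11 with arrays from -1.74 to -0.58 (limma, adjusted p = 0.004). DDX5 and DDX17, helicases of the nuclear processing complex, fell by 1.17 (0.0082) and 0.65 (0.0082), DROSHA by 0.42 (0.035) and AGO3 by 0.49 (0.0037). Another DDX17 probe was at -0.16 and another AGO3 probe at 0.0044. DDX5 was at -0.86 to -0.56 on the miR-338-5p arrays and -1.98 to -1.46 on those of miR-421 (difference by limma, adjusted p = 0.12). AGO1 rose by 0.15 (0.039; another probe at -0.06), TNRC6C by 0.33 (0.007) and TARBP2 by 0.37 (0.023), and AGO2 averaged -0.03 (0.73). Without both arrays that stood apart, 5 fell and 2 rose.

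AATK, in which miR-338 lies, averaged 0.71 with arrays from -0.06 to 1.13 and did not meet the sign condition (adjusted p = 0.038), and FTX, which hosts miR-421, was not well above background. EZH2, the methyltransferase of Polycomb complex 2, averaged -0.40 ± 0.48 (SD, n = 6; limma, adjusted p = 0.13), with miR-421 replicate 1 at -1.34 and the rest at -0.35 to -0.07. Its partner SUZ12 fell by 0.94 with arrays from -1.40 to -0.44 (0.0043), RBBP7 by 0.59 (0.011), RBBP4 by 0.40 (0.0077) and MTF2 by 0.73 (0.0032), whereas EED averaged -0.13 (0.24). In all 6 of 25 Polycomb genes fell (24%, against 14.1% of all genes) and 2 rose (8%, against 8.72%), among them RING1 by 0.25. MTDH averaged -0.40 (0.11).

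The lists in this paragraph had few calls, to be read against 8.72% of all genes that rose and 14.1% that fell. Of 25 interferon genes, 3 rose and 1 fell and the median was -0.00023. ISG20, an exonuclease, rose by 1.31 (limma, adjusted p = 0.002) and IRF7 by 0.85 (0.0054), IFITM1 fell by 0.92 (0.0068), and the sensors DDX58 and IFIH1 averaged -0.07 and 0.02. Of 19 p53 targets, 3 rose, GADD45A by 0.71, BBC3 by 0.67 and TNFRSF10B by 0.66, and POLH fell by 0.53. CDKN1A averaged 0.41 (0.11). Among mesenchymal genes CDH2, N-cadherin, fell by 0.87 (0.0011; another probe at -0.18) and ITGA5 rose by 0.43 (0.028), among 12 tested. In the MAPK list DUSP4 rose by 0.65 and EGR1 fell by 0.84 among 15, and MT1A, at 0.45, was the 1 of 10 metallothioneins that rose. Of 20 epithelial genes, KRT19 rose by 1.36 and ESRP1 by 0.64, and KRT8, EPCAM and MAL2 fell by 0.80, 0.77 and 0.68. KRT8 and MAL2 had other probes above 0 (up to 0.32 and 0.22) and lost their calls in 9 and 11 of 20 alternatives. KRT8 was at -1.40 to -1.25 on the miR-338-5p arrays and -0.51 to -0.13 on those of miR-421. ITGA5 was at 0.10 to 0.25 and 0.65 to 0.75. Neither difference between the lines passed the test (limma, adjusted p = 0.069 and 0.084).

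The list of intestine and liver genes, which holds SPINK1, had 6 falls and 0 rises among 18, against 14.1% and 8.72% of all genes. Its median was -0.41. Alternatives gave 4 to 11 falls and 0 rises, the 11 without miR-338-5p replicate 2. LGALS4, a galectin of the gut lining, fell by 1.36 with arrays from -1.52 to -0.98 (adjusted p = 0.00041) and TM4SF5 by 0.73 (0.0096). APOA2 was not well above background in Cy5 on any array and is at least 1.48-fold lower. CDH17 and MUC13 also fell, with Cy5 well above background on 1 array each. These genes passed the filter on dim probes through the control dye, which favours a fall. Their calls therefore cannot show a direction for the list. In the stem cell and drug efflux list 4 of 15 fell, against 14.1% of all genes. POU5F1 fell by 1.29, with miR-338-5p replicate 2 at -0.15 and another probe at -0.14, KIT by 0.56 and SOX2 by 0.27, with Cy5 above background on 2 and 3 arrays for the latter pair. ABCC3 was not well above background in Cy5 on any array and is at least 1.43-fold lower, each such bound being the control mean over the dim signal or the lowest signal well above background, whichever is higher. The steroid and xenobiotic list had 4 falls, AKR1C3, AKR1C4, GCLM and HSD17B4, and 1 rise, ALDH3A1, among 22, against 14.1% and 8.72% of all genes.

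Several measurements bear on the vector, the dyes and the control culture. Over the 6 arrays the median SD of a probe's level was 0.0706 in Cy3 and 0.191 in Cy5, both on the log2 scale. The SD was larger in Cy5 for 89.5% of tested probes. In the plot of levels by dye, RPS2 and TRIB3 went the other way. Of the spiked E1A control transcripts, which are not of the cells, 7 were well above background on every array. One of them, E1A_r60_1, had log2 ratios of 0.79 to 1.15 on the 6 arrays, with a mean of 0.93. The other 6 had means of 0.03 to 0.31, and on miR-421 replicate 1 they were at 0.52 to 0.75. Since Cy5 was always the miRNA line, dye and line cannot be told apart in these arrays. Neither can a difference of the control culture, the vectors' own effects and those of the miRNAs.

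**Figure D5:**
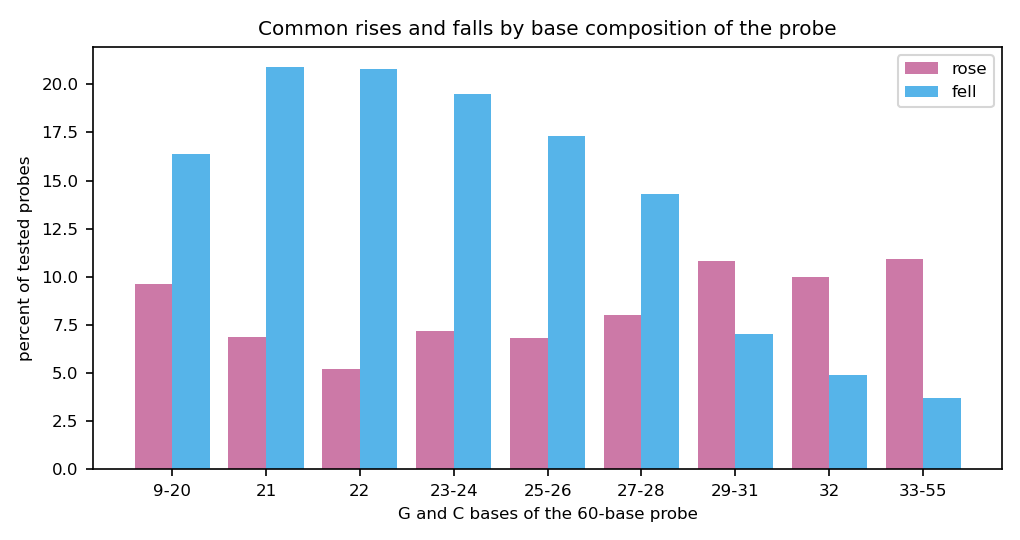
Percent of tested probes that rose (pink) and fell (blue), by the number of G and C bases in the 60-base probe. Falls make up 20.9% of probes with 21 such bases and 3.68% of those with 33 or more.

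Base composition moved with the direction of the common response. Probes that fell held 24.6 G and C bases of 60 on average, probes that rose 27.9 and all tested probes 26.8. Of probes with 21 G and C bases, 6.86% rose and 20.9% fell, and of those with 33 or more, 10.9% rose and 3.68% fell. Across probes, which are not independent, the mean ratio and the G and C count correlated at r = 0.22 and rho = 0.258, and by array r ran from -0.0396 on miR-338-5p replicate 1 to 0.336 on miR-421 replicate 1. When ratios were centred within probes of equal composition, 6197 probes met the conditions, 2685 higher and 3512 lower, and the ATF4, S phase and sterol medians remained on their side of 0. Of the 5502 dimmest tested probes 1.87% rose and 4.03% fell, and of the 5502 brightest 12.9% rose and 19% fell. Whether composition, dye or control culture set any of the named changes was not tested.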

How the data were processed

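Per the file headers, the 6 arrays were 2-colour Agilent arrays on 1 slide, read with Feature Extraction 11.5.1.1. The deposited intensity values used were the mean spot and median local background brightness of both dyes. Alternatives used the log10 ratio that the image software deposited for each spot, and the log2 ratios of the authors' whole-series table, whose processing is not given in the sources used here. Intensities were corrected with normexp (offset 50) and loess within arrays in limma 3.58.1 (R 4.3.3). Of 58201 probes, 27509 exceeded background clearly in 1 or both dyes on 3 or more arrays. The mean of 6 arrays was tested against 0 (eBayes, two-sided, Benjamini-Hochberg), and 1 sign on all arrays was required. Genes were represented by their probe with the highest mean intensity.

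Members and lists were chosen with earlier results of these data known. The text names the 12 largest rises and falls, the 6 of each with the smallest p, up to 4 members per list, and SPINK1, EZH2, MTDH, AATK and FTX; further members were named after their values were seen. The fit was tested on simulated data. Array processing alternatives, single arrays left out and blocks are in the closing section; 2 alternatives, centring by probe composition and leaving out a pair of arrays, were added after seeing the data. Gene names are the array's, updated through RefSeq accessions for 1778 of 19860 matched probes. Probe coordinates are on hg19, and no annotation of that build was used here. The number of arrays limits precision. Some genes are not reported here, though the counts and medians of lists include them.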

Additional observations from a re-analysis of the deposited data

Results flagged for a closer look

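For 14 of the 123 named genes and 3 of 26 lists, 1 array lay far from the other 5, by Dixon's test of the gap over the whole range. Chance alone flags about 1 in 20 such groups. Of these arrays, 8 were miR-421 replicate 1 and 5 were miR-338-5p replicate 2.

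On miR-421 replicate 1, CENPF was at -2.71 where the others lay between -1.21 and -0.48, HSP90AA1 was at -2.50 (others -1.29 to -0.64), ELL2 at -3.38 (others -1.84 to -1.58) and EZH2 at -1.34 (others -0.35 to -0.07). On the same array ALDH3A1 was at 1.51 (others 0.35 to 0.68) and LGALS4 at -0.98 (others -1.52 to -1.34). Its median of the p53 target list was 0.45 (others 0.04 to 0.16) and that of the epithelial list -0.32 (others -0.01 to 0.16).

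On miR-338-5p replicate 2, TM4SF5 was at -0.0235 (others -1.09 to -0.77), POU5F1 at -0.15 (others -1.79 to -1.35), HIST1H2AM at 1.67 (others 0.40 to 0.82) and HIST2H2AC at 1.5 (others 0.51 to 0.67). Its median of the intestine and liver list was 0.16, against -0.64 to -0.40 on the others.

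JDP2 was at 0.82 on miR-338-5p replicate 3 (others 1.68 to 1.97), where EGR1 was also apart at -1.92 (others -0.84 to -0.43). ERN1 was at 1.20 on miR-338-5p replicate 1 (others 0.67 to 0.81), and VEGFA at 0.63 on miR-421 replicate 2 (others 0.88 to 1.02).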

How the results depend on the processing

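The common response held 6094 probes, 2277 higher and 3817 lower, and with median centring 1061 were higher. The authors' deposited log2 ratios are per gene, and of 21697 genes tested there 2352 were lower and 2007 higher, a smaller set in which shared calls were not counted. Leaving out 1 array gave 1411 to 2169 rises and 2785 to 3778 falls. The rises were 1416 without the miR-421 pool and 1411 without miR-421 replicate 2. The replicate number as a random block gave 7582 probes, 3105 higher and 4477 lower, at a block correlation of -0.458. Samples with the same number deviated with r = -0.141 and -0.212 over 2 pairs. So few pairs cannot show whether such samples share more than the number. The line as a block gave 5493, and centring by probe composition 6197. SPINK1 stayed lower and past the threshold in each setting, from -5.93 to -4.95 with 1 array left out. None of the 120 named genes that rose or fell reversed its mean in any setting. Where arrays were only left out, no reversal was possible, since these genes were chosen for 1 sign on all 6 arrays. At most 18 lost the call in 1 setting, that of median centring, and 17 did without both arrays that stood apart. EZH2 met both conditions under the replicate block (limma, adjusted p = 0.033), a setting with more calls over all probes, at 7582 against 6094. MTDH met them without both arrays (limma, adjusted p = 0.049), a setting added after seeing the data that asks 1 sign on fewer arrays. With 6 arrays in 1 dye orientation, dim probes and changes near the spread of the arrays are those least well measured. Causes of these shifts were not tested.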
